A study of Homo sapiens with 6 samples.

Results

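Long intergenic non-coding RNAs (lincRNAs) are transcribed between protein-coding genes, and many are capped, spliced and carry a poly(A) tail, as mRNAs do, without a known protein product. Some lincRNAs act in the nucleus on chromatin or transcription, others act in the cytoplasm, where they can bind proteins or microRNAs, and for most no function is known. A microRNA guides Argonaute proteins to transcripts that pair with its seed near the 5′ end, which lowers the stability or the translation of those transcripts. miR-205 belongs to epithelial cells, where it is known for repressing the ZEB transcription factors, and miR-214 is known from muscle, bone and tumor stroma.

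The probes described here came from the lincRNA content of an Agilent SurePrint G3 Human GE array, hybridized with RNA of MDA-MB-231, a triple-negative human breast cancer cell line of mesenchymal-like appearance. They were all probes of the series A_19_P whose transcript name was no RefSeq mRNA (NM_) or non-coding RNA (NR_) accession, ranked by their mean log2 signal over the 6 arrays, of which the 300 brightest were taken. They were thus chosen by their measured signal, so their levels and ranks are given as a description without a test. They were 300 of 700 such probes, and of 50599 probes on the array. The cells had received, by transfection, a precursor of hsa-miR-205-5p, one of hsa-miR-214-3p, or a scrambled one (SCR), and RNA was collected 72 h later. Each group had 2 arrays, and all 6 arrays lay on 1 slide. Every group, SCR included, had gone through transfection, and no array of untransfected cells was analysed here. The labels do not say that the 2 samples of a group came from separate cultures, so the p-values measure the spread between these samples, which may be technical.

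The 2 transfected miRNAs are shown because every comparison turns on them. Both are mature sequences of RefSeq (GRCh38.p14), written 5′ to 3′, and the capitals mark the seed, bases 2 to 8.
hsa-miR-205-5p: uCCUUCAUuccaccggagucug
hsa-miR-214-3p: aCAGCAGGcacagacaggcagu
The 22 bases of hsa-miR-205-5p lie at chr1:209432166-209432187 on the plus strand, in MIR205, and the 22 bases of hsa-miR-214-3p lie at chr1:172138816-172138837 on the minus strand, in MIR214. Their seeds differ. The sequences of the probes and of the transcripts they were designed on were not analysed here, so no search for seed matches was made.

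Values below are normalized log2 signals, that is log2 of the processed signal minus the array's 75th percentile, so 1 unit is a 2-fold difference and 0 is the 75th percentile of that array. Between 35.4% and 42.2% of all spots were well above background by the scanner software, and 0 were saturated. A probe entered the test when both arrays of some group had it well above background, as was so for 18468 of all probes (36.5%). Among 7 genes expected in this cell line, 6 were well above background on all 6 arrays, the exception being SPARC. Among 7 genes expected to be low, ESR1, PGR and ESRP1 were well above background on no array, while CDH1, EPCAM, ERBB2 and GATA3 were on all 6.

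The names of the 300 probes were mostly those of transcript models. An Ensembl transcript (ENST) named 176 of them, and 65 carried a name beginning with lnc-, which is built from a protein-coding gene near the locus. A further 21 had a RefSeq model accession (XR_ or XM_), 14 had the name of an assembled transcript (TCONS), 9 had another accession, 5 had a THC name, and 10 had only the name of the probe. None of the 21 model accessions was found in the RefSeq gene table used here. An XM_ accession stands for a predicted mRNA, so that the names do not all describe non-coding RNA, and whether each transcript is intergenic and non-coding was not checked. The 300 probes fell on 239 names or loci. For 38 of these there were several probes, 99 in all, and for 13 there were 3 or more. Probes of 1 locus report on 1 RNA or on its isoforms and are no independent measurements.

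The mean log2 signal that chose the probes ran from 15.58 at the top to 2.17 at the bottom, with a median of 4.25. Probes bind with different strength, so these signals rank spots and not amounts of RNA. It was over 10 for 10 probes and under 4 for 144. The brightest, A_19_P00802027, carried no transcript name and had a mean log2 signal of 15.58. The next 2 probes both belonged to lnc-FAM105B-1:1, and lnc-PPA2-1:1 and ENST00000406671 followed. At the lower end the last 3 inside were ENST00000503259 at 2.20, ENST00000561822 at 2.19 and ENST00000382641 at 2.17, and the first 3 outside were lnc-CHIC1-2:1, XR_110530 and ENST00000591549, all at 2.16. The limit therefore cut a continuous series of values and no gap separated the 2 sides.

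Brightness by this rule was not the same as detection. Of the 300 probes, 140 were well above background on all 6 arrays, 19 on 5, 14 on 4, 14 on 3, 12 on 2, 32 on 1 and 69 on none. The first probe that was not well above background everywhere stood at rank 114, and the last one that still was stood at rank 166. The test took in 188 of the 300, and 112 were not tested. None of the 400 probes outside the rule passed the filter. By kind of name, 92 of the 176 ENST probes were well above background on all 6 arrays, as were 27 of the 65 lnc- probes, 8 of the 21 model accessions, 7 of the 10 with a probe name alone, 2 of the 14 TCONS probes and 0 of the 5 THC probes. Per array, the number of the 300 well above background was 184 and 163 with hsa-miR-205-5p, 178 and 169 with hsa-miR-214-3p, and 196 and 199 with SCR. The SCR arrays were also those with the most spots well above background over the whole array.

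Most of the well measured probes differed little between the groups. Of the 140 probes well above background on all 6 arrays, 109 stayed within 2-fold in all 3 comparisons. The range of a probe over the 6 arrays had a median of 0.86 log2 units, from 0.12 to 3.32. Neither this range nor the count within 2-fold was taken over the whole array. By the limits of a call given below, 13 of the 140 were called with hsa-miR-205-5p against SCR. With hsa-miR-214-3p against SCR 1 was called, and between the precursors 19 were. Of the 14715 array probes with the same detection, 1637, 400 and 2634 were called in the same order. Whether these probes stood apart from the array was not tested. Replicate arrays differed by a median of 0.18 with hsa-miR-205-5p, 0.15 with hsa-miR-214-3p and 0.34 with SCR, and at most by 2.75, 0.81 and 2.40.

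The steadiest was A_19_P00808923, which is known by its probe name alone. It measured 3.57 and 3.69 with hsa-miR-205-5p, 3.60 and 3.69 with hsa-miR-214-3p, and 3.67 and 3.63 with SCR. Its range over the arrays, 0.12, was less than the median gap between replicates in any group. Both probes of ENST00000602837 were among the 5 steadiest, with ranges of 0.13 and 0.32, as were ENST00000586954 (0.21) and ENST00000560832 (0.34).

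The brightest probe, A_19_P00802027, measured 10.30 and 10.34 with hsa-miR-205-5p, 9.95 and 10.02 with hsa-miR-214-3p, and 10.16 and 9.88 with SCR. It was called in no comparison. The first probe of lnc-FAM105B-1:1, A_19_P00807615, measured 9.50 and 9.49 with hsa-miR-205-5p, 8.69 and 8.71 with hsa-miR-214-3p, and 9.12 and 8.85 with SCR. The second, A_19_P00809682, measured 8.49 and 8.48, 7.53 and 7.43, and 8.14 and 7.53 in the same order. On both probes the hsa-miR-205-5p arrays were highest and did not overlap with any other. Between the precursors the differences were 0.79 and 1.00 (limma adjusted p = 0.0218 and 0.029), of which only the second reached 2-fold, and neither probe was called against SCR. lnc-PPA2-1:1 showed 7.29 and 7.15 with hsa-miR-205-5p, 6.19 and 6.27 with hsa-miR-214-3p, and 6.92 and 5.93 with SCR. Its SCR arrays lay almost 1 unit apart, and it was called in no comparison.

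The comparison of hsa-miR-205-5p with SCR asked which of these RNAs changed after transfection of that precursor. A probe was called at a limma adjusted p under 0.05, adjusted by Benjamini-Hochberg over the 18468 probes tested, and a change of at least 2-fold. With hsa-miR-205-5p, 13 of the 188 tested probes were lower and 4 were higher. Of all kept probes, 8.05% were called lower and 4.14% higher. The shares among the lincRNA probes, 6.91% and 2.13%, were thus near or below those of the array as a whole. The 822 probes of the same series with an NM_ or NR_ name held 374 tested probes, of which 28 were lower and 12 higher. The 13 lower probes fell on 7 names, and 7 of the 13 were probes of ENST00000444184. Another 4 were well above background on no hsa-miR-205-5p array and entered the test through other groups. In RNA of whole cultures, fewer cells with a transcript and less of it per cell cannot be told apart. The counts of calls depended on single arrays, as given further below. The median difference over the 11 probes of ENST00000444184 was -1.13 without the first hsa-miR-205-5p array and -1.21 without the second. It was -1.19 without the first SCR array and -1.17 without the second, beside -1.16 with all arrays. On A_19_P00806911 of ENST00000607016 the 4 values in the same order were -2.33, -1.84, -2.70 and -1.47. With the arrays scaled to their medians in place of their 75th percentiles, 24 probes were lower and 0 higher, which moved the share of lower calls from 76.5% to 100%.

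Over the 140 probes that all 6 arrays had well above background, the median difference between hsa-miR-205-5p and SCR was 0.17, beside 0.12 over the 14715 probes of the array that met the same condition. Scaling to the array medians turned the sign, to -0.22, and moved the median of all kept probes from 0.05 to -0.34. Below 0 lay 37.1% of these 140 and 42.4% of the 14715. Over all 300 the median was 0.30, over the 400 outside the rule 0.77 and over all probes 0.58.

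ENST00000444184 was the transcript with the most probes, 11, all of which were among the 300, at ranks 42 to 151. The probe with the largest fall, A_19_P00316745, measured 0.48 and 0.44 with hsa-miR-205-5p, 2.24 and 2.33 with hsa-miR-214-3p, and 1.87 and 2.01 with SCR. Both hsa-miR-205-5p arrays lay more than 1 unit below the other 4. The difference from SCR was -1.48 ± 0.15 (SE, n = 2 arrays per group, limma adjusted p = 0.0085), a 2.79-fold fall. The other 10 probes differed in the same direction, with differences between -1.40 and -0.30 and a median over the 11 of -1.16. The 7 called probes were those at ranks 44, 48, 51, 52, 53, 56 and 59. All 11 differences were below 0 under each scaling, background correction and set of arrays tried, but the smallest came close to 0. It was -0.004 with another background correction (normexp) and -0.009 without the first SCR array. Calls among the 11 were lost when 1 hsa-miR-205-5p array was left out. The number called was 3 with only the 4 arrays compared and 1 with normexp, which put A_19_P00316745 at -0.96.

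The 4 probes of ENST00000444184 that were not called against SCR had smaller differences or a wider gap between replicates. The brightest, A_19_P00322371, measured 1.77 and 1.90 with hsa-miR-205-5p against 2.51 and 2.50 with SCR, and its difference of -0.67 (limma adjusted p = 0.0394) was short of 2-fold. A_19_P00317683 measured 1.78 and 1.61 against 2.29 and 1.70, a difference of -0.30 (adjusted p = 0.389). A_19_P00805625 measured -0.56 and 0.22 against 0.52 and 1.02, a difference of -0.94 (adjusted p = 0.095). The dimmest, A_19_P00317128, was the only one of the 11 not well above background on every array, and measured -1.57 and -1.58 against -0.87 and -1.52. The arrays of the 2 groups overlapped on A_19_P00317683 and on no other of the 11.

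With hsa-miR-214-3p the same 11 probes differed from SCR by 0.03 to 0.38, and none was called. The hsa-miR-205-5p arrays were below the hsa-miR-214-3p arrays on all 11 probes, by 0.68 to 1.82, and 8 of the 11 were called lower there. The largest difference was again on A_19_P00316745, at -1.82 ± 0.15 (SE, limma adjusted p = 0.0038).

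Apart from ENST00000444184, 2 names were lower with hsa-miR-205-5p on probes well above background on all 4 arrays compared. ENST00000607016, on probe A_19_P00806911, measured 0.20 and -0.29 with hsa-miR-205-5p, 3.03 and 2.94 with hsa-miR-214-3p, and 1.42 and 2.65 with SCR. The hsa-miR-205-5p arrays were the lowest, and the SCR arrays lay more than 1 unit apart. The difference from SCR was -2.08 ± 0.43 (SE, limma adjusted p = 0.0292), a 4.23-fold fall. It was -2.70 without the first SCR array and -1.47 without the second, and -1.40 with normexp. Its second probe, A_19_P00802759, measured -0.39 and -0.35, 2.21 and 2.33, and 0.55 and 1.79 in the same order of groups. It differed from SCR by -1.53 (adjusted p = 0.0533) and was not called. ENST00000521122 measured 0.27 and -0.08 with hsa-miR-205-5p, 2.29 and 2.34 with hsa-miR-214-3p, and 1.40 and 1.80 with SCR. The groups did not overlap, and the difference from SCR was -1.51 ± 0.22 (SE, limma adjusted p = 0.0135). With normexp it was -0.98, short of 2-fold.

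The other 4 of the 13 lower probes did not stand well above background in hsa-miR-205-5p cells, and only a lower limit of the fall can be given. They entered the test through groups where they were higher. Their calls are thus no independent evidence of a fall, and their values are a description. That limit sets the SCR mean against the lowest signal well above background on the hsa-miR-205-5p arrays. lnc-ZNF674-3:2, named after a locus near the zinc finger gene ZNF674, measured -2.73 and -3.44 with hsa-miR-205-5p, -0.24 and -0.15 with hsa-miR-214-3p, and -0.81 and 0.06 with SCR. It was at least 2.36-fold lower than in SCR (limma adjusted p = 0.0123). A probe of another series with the same name, A_33_P3540725, was likewise dim in hsa-miR-205-5p cells and was at least 2.12-fold lower (adjusted p = 0.0141). It too entered the test only through the other groups. ENST00000419300 was at least 2.23-fold lower on A_19_P00327354, and its other 2 probes were too dim to be tested. ENST00000608369 was at least 2.00-fold lower, with -2.22 and -3.57 against -0.64 and -0.59 in SCR. For ENST00000518765, which entered the test only through SCR, the group where it was high, the limit was 1.01-fold.

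The 4 probes that were higher with hsa-miR-205-5p were all well above background on every array. lnc-TOP1MT-2:1, near the mitochondrial topoisomerase gene TOP1MT, measured 4.03 and 3.56 with hsa-miR-205-5p, 2.64 and 2.61 with hsa-miR-214-3p, and 2.69 and 2.48 with SCR. Only the hsa-miR-205-5p arrays stood apart, by 1.21 ± 0.21 from SCR (SE, limma adjusted p = 0.0208) and by 1.17 from hsa-miR-214-3p (adjusted p = 0.0146). A_19_P00325768, known by its probe name alone, measured 5.61 and 5.67 with hsa-miR-205-5p, 5.34 and 5.09 with hsa-miR-214-3p, and 4.58 and 4.47 with SCR. All 4 precursor arrays lay above both SCR arrays, by 1.12 ± 0.17 with hsa-miR-205-5p (SE, adjusted p = 0.0144) and by 0.69 with hsa-miR-214-3p (adjusted p = 0.096). Between the precursors it differed by 0.43 (adjusted p = 0.104), so a difference in response was not shown.

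ENST00000417112 had the same order of groups, with 4.11 and 4.17, 3.95 and 3.90, and 3.07 and 3.14. It differed from SCR by 1.03 with hsa-miR-205-5p (limma adjusted p = 0.0136) and by 0.82 with hsa-miR-214-3p (adjusted p = 0.0557). Between the precursors it differed by 0.21 (adjusted p = 0.311), so a difference in response between the 2 miRNAs was not shown for it. ENST00000585822 measured -0.03 and -0.23 with hsa-miR-205-5p, -0.81 and -1.01 with hsa-miR-214-3p, and -1.03 and -1.25 with SCR. Its difference from SCR was 1.01 (adjusted p = 0.0213), and its second probe, A_19_P00317597, gave 0.80 (adjusted p = 0.0396), in the same direction and short of 2-fold. None of the 4 higher probes was called with normexp or with scaling to the array medians. Their differences were then 0.88 and 0.82 for lnc-TOP1MT-2:1, 0.86 and 0.73 for A_19_P00325768, 0.72 and 0.64 for ENST00000417112, and 0.35 and 0.62 for ENST00000585822.

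Fewer of these probes were called with hsa-miR-214-3p. Against SCR, 3 of the 188 tested probes were lower and 0 were higher by limma, where 1.68% and 0.991% of all kept probes were. At an unadjusted p under 0.05 and the same 2-fold limit the counts were 7 and 2, beside 3.87% and 2.69% of all kept probes. By limma, 0 were lower without either hsa-miR-214-3p array or the first SCR array, and 7 were lower and 4 higher without the second SCR array. The median difference was -0.01 over the 140 probes and -0.01 over the 14715 probes of the array with the same detection. Both hsa-miR-214-3p and hsa-miR-205-5p were set against the same 2 SCR arrays, whose probes had the widest gaps between replicates.

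The 1 probe that was lower with hsa-miR-214-3p while well above background on all 4 arrays was A_19_P00322895 of ENST00000473756. It measured 0.59 and 0.37 with hsa-miR-214-3p, 1.84 and 1.84 with hsa-miR-205-5p, and 2.03 and 1.76 with SCR. The hsa-miR-214-3p arrays alone were low, by -1.42 ± 0.18 against SCR (SE, limma adjusted p = 0.0341). The other probes of that transcript did not give a fall of this size. A_19_P00317447 measured 3.64 and 3.57 with hsa-miR-214-3p against 3.80 and 3.99 with SCR, a difference of -0.29 (adjusted p = 0.349). A_19_P00316467 measured 1.17 and 1.29 against 0.93 and 2.41, a difference of -0.44 (adjusted p = 0.623).

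The remaining 2 were dim and well above background on the SCR arrays only. They entered the test through the group where they were high, so their calls are no independent evidence of a fall and their values are a description. ENST00000567197 measured -1.45 and -1.57 with SCR and -3.14 and -2.71 with hsa-miR-214-3p, at least 1.40-fold less. ENST00000518765, on A_19_P00320885, which met the limits of a call with both precursors, measured -3.21 and -3.01 for hsa-miR-205-5p, -2.69 and -2.59 for hsa-miR-214-3p, and -1.49 and -1.70 for SCR. With hsa-miR-214-3p this was at least 1.32-fold less than with SCR, and with normexp the differences shrank to -0.13 and -0.19. Its brighter probe, A_19_P00316401, was not called, with 1.98 and 1.55, 1.67 and 1.35, and 2.06 and 1.71 in the same order. No probe was called in opposite directions with the 2 precursors. With only 3 of the 188 tested probes called with hsa-miR-214-3p, little overlap was possible, and all kept probes were not counted for this.

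The 2 precursors were also compared with each other, which leaves out the SCR arrays except in the estimate of the spread. Here 17 of the 188 tested probes were lower with hsa-miR-205-5p than with hsa-miR-214-3p and 13 were higher. Over all kept probes the shares were 11.5% and 8.37%, and among the lincRNA probes they were 9.04% and 6.91%. This comparison shares its hsa-miR-205-5p arrays with the one against SCR, so the calls of both are not independent. The lower probes fell on 9 names and the higher ones on 12. With 1 array of either precursor left out, between 2 and 15 probes were lower and between 1 and 3 higher. Scaled to the array medians the split was 18 lower and 8 higher.

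Some of these calls were on probes that were called against SCR with neither precursor. ENST00000415215 was one of them, with 1.32 and 1.98 with hsa-miR-205-5p, -0.01 and 0.18 with hsa-miR-214-3p, and 1.32 and 0.97 with SCR on A_19_P00321795. The difference between the precursors was 1.57 ± 0.27 (SE, limma adjusted p = 0.0132), and a second probe, A_19_P00317824, gave 1.52 (adjusted p = 0.0315). ENST00000418134 measured 0.45 and 0.44 with hsa-miR-205-5p, -1.07 and -0.95 with hsa-miR-214-3p, and 0.17 and -0.73 with SCR, a difference between the precursors of 1.45 (adjusted p = 0.0224). Its SCR arrays lay almost 1 unit apart. AK090765 measured -0.11 and -0.05, -1.20 and -1.73, and -0.38 and -1.02 in the same order, a difference of 1.38 (adjusted p = 0.0212). With normexp none of these 3 was called, at 0.84 for A_19_P00321795, 0.59 for ENST00000418134 and 0.34 for AK090765 (limma adjusted p = 0.0331, 0.038 and 0.104).

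In the other direction, ENST00000399411 was lower with hsa-miR-205-5p on both of its probes. On A_19_P00810205 it measured 2.57 and 2.47 with hsa-miR-205-5p, 3.91 and 3.93 with hsa-miR-214-3p, and 3.23 and 3.78 with SCR. The difference between the precursors was -1.40 ± 0.22 (SE, limma adjusted p = 0.0103), and the difference from SCR, -0.98 (adjusted p = 0.0362), was just short of 2-fold. Its brighter probe, A_19_P00802201, differed by -0.74 between the precursors (adjusted p = 0.0201) and by -0.64 from SCR (adjusted p = 0.041), also short of 2-fold. Both probes of ENST00000607016 were called lower here, at -3.03 and -2.64 (adjusted p = 0.0079 and 0.0097), as was ENST00000521122 at -2.22 (adjusted p = 0.0041).

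ENST00000429947 was singled out after its values were seen. It measured -0.82 and 1.13 with hsa-miR-205-5p, -4.18 and -3.89 with hsa-miR-214-3p, and -1.54 and -4.62 with SCR. It entered the test only through hsa-miR-205-5p, the group where it was high, so its values are a description. The hsa-miR-205-5p mean was at least 4.43-fold above hsa-miR-214-3p, where it was not well above background. Its replicates lay more than 1 unit apart both with hsa-miR-205-5p and with SCR.

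Where several probes shared a name, the agreement between them could be read off. For 17 names at least 2 probes were well above background on all 6 arrays. Counting only those probes and not the dimmer ones of the same names, the difference between hsa-miR-205-5p and SCR varied within a name by a median of 0.34, and by more than 1 for 2 names. With hsa-miR-214-3p the median was 0.16, and 1 name, ENST00000473756, exceeded 1, at 1.13. The widest spread with hsa-miR-205-5p over these probes was that of lnc-SIK1-2:1, at 1.44. With dimmer probes counted, ENST00000578280 had a wider one, 1.99, and with hsa-miR-214-3p ENST00000415215 had one of 1.17. Of the 2 lnc-SIK1-2:1 probes, A_19_P00808865 measured 2.37 on the second hsa-miR-205-5p array and between -0.73 and 0.40 on the other 5. The other, A_19_P00801752, stayed between -0.30 and 0.43 on all 6. The spread of 1.44 for lnc-SIK1-2:1 thus rested on a single array.

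Closer agreement was seen for ENST00000586949 and ENST00000520819, both with 3 bright probes. The probes of ENST00000586949 differed between hsa-miR-205-5p and SCR by 0.27, 0.35 and 0.36, and those of ENST00000520819 by -0.15, -0.08 and 0.02. The 4 probes of ENST00000423704 all lay below SCR, with differences of -1.20 to -0.11 with hsa-miR-205-5p and of -0.51 to -0.17 with hsa-miR-214-3p, and none was called. On 3 of these 4 probes the second SCR array lay more than 1 unit above the first. The 3 probes of ENST00000578280 all lay below SCR as well, with differences of -2.11 to -0.12 and of -0.66 to -0.45, and none was called. The probes of XM_001716361 differed by 0.36, 1.05 and 0.15 with hsa-miR-205-5p, and none was called. The first of them, A_19_P00318568, was among the 10 brightest.

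On the remaining names with 3 or more probes the direction varied from probe to probe. lnc-C9orf50-2 had 4 probes, of which 1 passed the filter, with differences of -0.33 to 1.57 with hsa-miR-205-5p. The 3 probes of lnc-LTBP3-2 gave -0.29 to 0.65 and those of ENST00000427188 gave -0.22 to 0.49. The 3 probes of THC2666657 gave -0.02 to 0.19 with hsa-miR-205-5p and -0.63 to 0.22 with hsa-miR-214-3p. None of the probes of these 4 names was called against SCR.

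The array also held 50 probes of other series with the names of 60 of the 300. Of these, 7 were well above background on all 6 arrays, which gave 8 pairs over 5 names with such a probe among the 300. The difference between hsa-miR-205-5p and SCR was off by a median of 0.08 between the probes of a pair, at most 0.53, for XR_110541. With hsa-miR-214-3p the median was 0.18 and the largest 0.29. The probe of ENST00000586949 from another series, A_32_P196142, gave 0.35 with hsa-miR-205-5p, within the range of its 3 lincRNA probes.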

How the data were processed

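Total RNA of MDA-MB-231 cells was labeled with 1 dye and hybridized to 6 Agilent arrays, 2 per group, grouped as the sample labels give them. The authors deposited the scanner output of Agilent Feature Extraction 11.0. Its processed signal is an intensity per spot on a linear scale, background subtracted, with no scaling across arrays. A log2 table of 50739 rows, deposited beside it, was used as an alternative. When sorted, its 6 columns held identical values, their median was 3.49, and each correlated with log2 of the processed signal at 0.997 or more. The methods name GeneSpring, a p-value and a 2-fold limit.

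Control spots and spots that the software marked as outliers (245 to 463 per array, 0 of them on the 300 probes) were left out, spots of a probe were averaged, log2 was taken and each array's 75th percentile was subtracted (35.1 to 58.0 before log2). Each of the 300 probes had 1 spot. limma 3.58.1 (lmFit and eBayes, R 4.3.3, with data.table in version 1.17.8) was fitted to all 6 arrays and 18468 kept probes, with 3 residual and 2.47 prior degrees of freedom, and p-values were adjusted by Benjamini-Hochberg over all of them. The code was tested on simulated data. A group in which a probe was well above background on no array has only a bound, set at the higher of the lowest signal well above background and the probe's own signal on each array. The number of arrays limits the precision.

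The 300 probes, the marker list and the tests were chosen with earlier results of these data known. Named are the brightest and dimmest probes, up to 5 of the largest rises and falls per comparison among called probes well above background on all 4 arrays whose groups did not overlap, 1 per locus, those called with both precursors, the 5 steadiest, and names with 3 or more probes, and beyond that, after their values were seen, the remaining lower probes, second probes of a named transcript and those whose signal rested on 1 array. Names are those of the scanner files, since none of the 21 model accessions was found in RefSeq's genes (GRCh38.p14) and the other names could not be paired with them. The alternatives were other background correction, scaling, filters, tests, sets of arrays and rules for the probes. normexp was run on the median signal, as the files hold no mean signal of a spot. No slide block was run, as there was 1 slide.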

Additional observations from a re-analysis of the deposited data

How the results depend on the processing

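For probes lower and higher in hsa-miR-205-5p against SCR, 13 and 4 as reported, the counts were 3 and 0 with normexp, 24 and 0 with scaling to the median, 1 and 0 with no filter on dim probes, 5 and 0 with only the 4 arrays compared, and 0 and 0 by the methods' t-test after Benjamini-Hochberg adjustment. The higher count was 2 with quantile normalization, 2 with the authors' log2 table, 8 at unadjusted p and 8 with no fold limit. With 1 probe per locus 5 were lower. For hsa-miR-214-3p against SCR, 3 and 0 as reported, the lower count was 1 with normexp, with the intensity trend, for the 150 brightest probes and with 1 probe per locus, 0 with no filter, with 4 arrays, with the replicate block and by the adjusted t-test, and 5 by the unadjusted t-test. At unadjusted p it was 7, with 2 higher. For hsa-miR-205-5p against hsa-miR-214-3p, 17 and 13 as reported, the counts were 7 and 2 with normexp, 11 and 3 with no filter, 9 and 4 by the adjusted t-test, and 7 and 8 with 1 probe per locus. The higher count was 8 with scaling to the median, 8 with the filter on all 6 arrays, 8 with the replicate block and 24 with no fold limit.

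With 1 array left out, where the spread of the other groups stood in for that of the single array, hsa-miR-205-5p against SCR gave 0 to 20 lower and 0 to 23 higher, hsa-miR-214-3p against SCR 0 to 7 and 0 to 4, and the precursors against each other 2 to 15 and 1 to 3. The counts that gained most were those without the first SCR array for hsa-miR-205-5p and without the second for hsa-miR-214-3p.

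The median difference of hsa-miR-205-5p from SCR over the 300 probes was 0.17 with normexp, 0.18 with quantile normalization, -0.085 with scaling to the median and 0.17 with the authors' table. Over the 140 probes well above background on all 6 arrays it was 0.089 with normexp and -0.22 with scaling to the median. For hsa-miR-214-3p, 0.022 over the 300 and -0.01 over the 140 in the main processing, it was -0.020 with quantile normalization and -0.14 with scaling to the median over the 300, and -0.053 with normexp and -0.17 with scaling to the median over the 140. Between the precursors, 0.32 over the 300 and 0.29 over the 140 in the main processing, it was 0.098, 0.24, 0.093 and 0.23 over the 300 with normexp, quantile normalization, scaling to the median and the authors' table, and 0.13, 0.068 and 0.26 over the 140 with normexp, scaling to the median and the authors' table.

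Over 19 differences of named probes and their alternatives, 321 values in all, 214 kept their side of the threshold, 107 lost the call and 0 changed sign. All 19 were chosen because they were called in the main processing. Unadjusted p and no fold limit only loosen the limits, so the 19 of 19 kept in each were fixed in advance. Alternatives that changed only the test or the filter left the difference itself as it was, so its sign could not change there. Ranking by the authors' table shared 297 of the 300 probes and ranking by normexp-corrected signal 285. Same-numbered arrays did not deviate together (correlations of 0.11, 0.01 and -0.05), so the numbers were not taken as pairs, and the replicate block moved the counts given above and no other by over 1.5 times. The causes of these shifts were not tested. With 2 arrays per group, and 112 of 300 probes too dim for the test, signal over background limits what could be compared.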

Other observations

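On 4 probes the highest array stood more than 4 log2 units above the next, and their rank without that array was not worked out. They were chosen for this after their values were seen. In all 4 the array was the second of hsa-miR-205-5p, and it was the only one on which the probe was well above background. TCONS_l2_00017153 measured 2.58 there and -3.64 or less on the other 5 arrays. ENST00000493473 measured 3.39 there and -2.62 or less elsewhere, and TCONS_l2_00014842 measured 2.94 there and -2.73 or less elsewhere. AK124562, on A_19_P00317481, measured 3.14 there and -1.69 or less elsewhere, while its second probe, A_19_P00320536, measured -3.27 on that array. None of the 4 was tested, since each was well above background on 1 array of the group. None of their spots was marked as an outlier. The probe of ENST00000531207 stood more than 2 units above the next array, on the first hsa-miR-214-3p array, with 0.13 against -2.96 or less.

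In all, 32 of the 300 probes were well above background on 1 array alone. That array was one of SCR for 18 of them (7 and 11), one of hsa-miR-205-5p for 10 (3 and 7) and one of hsa-miR-214-3p for 4 (2 and 2).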
